A study of Mus musculus with 30 samples.

Results

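CC chemokines are small secreted proteins that draw leukocytes along a gradient by binding to CC receptors. The 9 CC chemokine genes described here are Ccl2, Ccl3, Ccl4, Ccl5, Ccl6, Ccl9, Ccl17, Ccl22 and Ccl24, out of 43629 genes in a table of read counts. They were found by matching the Ensembl gene identifiers of the table to these symbols. The counts come from RNA sequencing of bone marrow-derived dendritic cells (BMDCs) of adult mice, which are marrow cells grown in granulocyte-macrophage colony-stimulating factor and taken as the semiadherent fraction. BMDCs labelled WT came from C57BL/6J mice and those labelled Cacnb3-/- from C57BL/6N mice with a deletion of Cacnb3, the gene of a β3 subunit of voltage-gated calcium channels, so that genotype and substrain cannot be told apart. Each genotype had 5 cultures, named here by the numbers in the labels, and each culture gave 3 libraries whose names end in ctrl, 0p5h and 24h. The labels describe 6 days of culture and a pulse of 30 min with 500 µM ATP, with a harvest directly or 24 h later. The treatment field gives ATP for 30 min to the libraries named ctrl and vehicle to those named 0p5h, whereas name and field match for 24h. The 3 sets are therefore called by their library names, and the labels do not settle which of ctrl and 0p5h was unstimulated. Comparisons of genotypes were made within a set and do not depend on this.

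Ccl17 and Ccl22 encode the ligands of the receptor CCR4 on helper and regulatory T cells, and mature dendritic cells are a known source of both. Ccl3, Ccl4 and Ccl5 encode inflammatory chemokines that attract monocytes and T cells, Ccl2 encodes the main ligand of CCR2 on monocytes, Ccl6 and Ccl9 encode myeloid ligands of CCR1, and Ccl24 encodes an eotaxin that binds CCR3. The inflammatory members are induced early after danger signals through NF-kB, and Ccl17, Ccl22 and Ccl24 are known to respond to interleukin-4 through STAT6.

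The libraries held 8237393 to 32164225 counted reads, with a median of 19556920. Levels are given as CPM, counts divided by the library's scaled counts in units of 1000000. Transcripts of Cacnb3 were counted in every library, at 1035 to 2143 CPM in WT and 572.9 to 1331 CPM in the libraries labelled Cacnb3-/-. Counts per gene do not show which exons these reads came from, and genotypes are given as labelled. The 7 dendritic cell markers examined (Itgax, Flt3, Zbtb46, H2-Ab1, H2-Aa, Cd74, Ciita) were present in all libraries. The labels do not say whether the cultures came from separate animals, and the p-values measure the spread between these cultures. CPM values above and below were normalised with TMM, a scaling of library sizes, unless stated otherwise. RPKM values divide them by exon length in kilobases.

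Per length of transcript, Ccl5 and Ccl22 stood far above the other members. The median level over 30 libraries was 3898 RPKM for Ccl5 and 2442 RPKM for Ccl22. Ccl22 ranked between 2 and 25 and Ccl5 between 6 and 33 among all genes by reads in a library, and the 9 members together took 0.702% to 2.285% of the counted reads. Ccl6, Ccl9 and Ccl17 formed a middle tier with medians of 190.3, 156 and 153 RPKM. Ccl4, Ccl3 and Ccl2 were low, with medians of 21.1, 14.3 and 2.09 RPKM, and Ccl24 was close to the limit of detection.

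**Figure D1:**
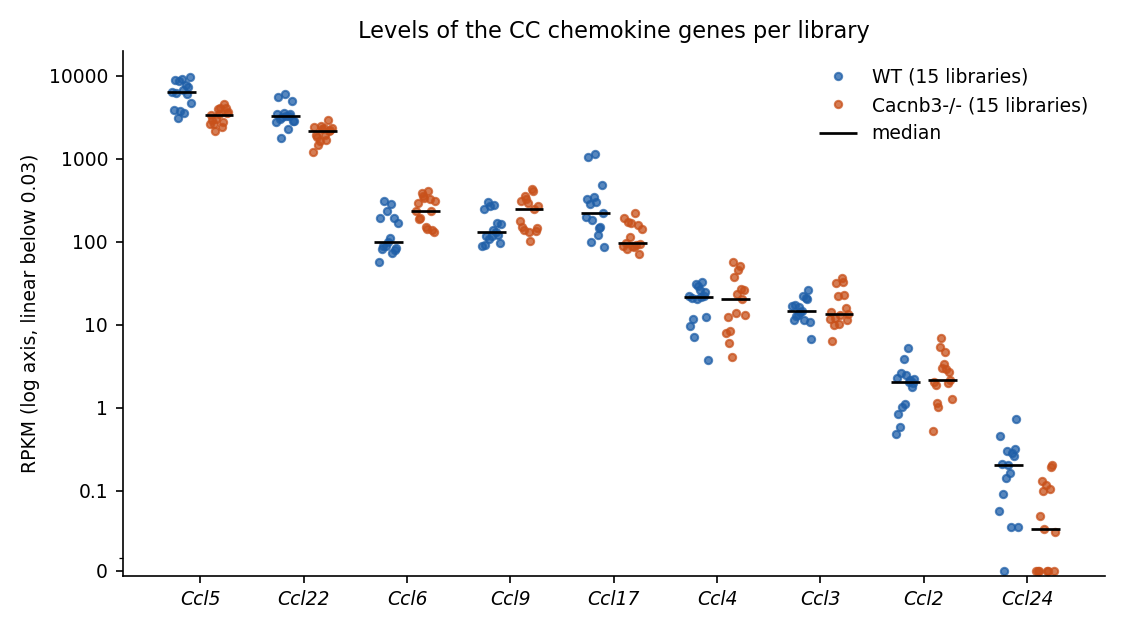
Level of each CC chemokine gene in every library, in RPKM on a log axis that is linear below 0.03, with 15 libraries of each genotype and the median as a black line. Ccl5 and Ccl22 lie above all other members, with WT medians of 6368 and 3239 RPKM and Cacnb3-/- medians of 3398 and 2145 RPKM.

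The order of the members within a library was stable at its ends and differed in the middle, which is given as a description. Ccl5 was above Ccl22 in 15 of 15 libraries of each genotype, and Ccl22 was above Ccl6, Ccl9 and Ccl17 in 15 of 15. Ccl17 was above Ccl6 in 11 of 15 WT libraries and in 0 of 15 Cacnb3-/- libraries, and the same counts held for Ccl17 over Ccl9. Neighbours whose order changed from library to library were Ccl6 and Ccl9, with Ccl6 above in 4 of 15 WT and 10 of 15 Cacnb3-/- libraries, and Ccl4 and Ccl3, with Ccl4 above in 10 and 9 of 15.

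Ccl24 had 87 of 326678511 reads over the 15 WT libraries and 20 of 249549248 reads over the 15 Cacnb3-/- libraries. At least 1 read was seen in 14 of 15 WT and 9 of 15 Cacnb3-/- libraries, with at most 15 reads in a library. The 7 libraries without a read allow a level of up to 0.150 to 0.263 CPM, here without TMM scaling, taking 3 counts as the limit that a count of 0 allows, which covers counting error only. Ccl24 did not pass the filter on low counts in any main comparison, and the other 8 members did in all of them. With no low-count filter, the log2 difference of Ccl24 (Cacnb3-/- minus WT) was -1.85 ± 1.01 in ctrl, -1.81 ± 0.82 in 0p5h and -1.49 ± 0.75 in 24h (edgeR adjusted p = 0.475, 0.410 and 0.238). In the sums over the libraries of all cultures, the edgeR adjusted p of Ccl24 with no low-count filter was 0.185. WT p974s864 had at most 1 read of Ccl24 in a library. It had the least Ccl24 of the WT cultures (mean of 0.031 CPM over its libraries), so leaving it out had to widen the difference. Without that culture, Ccl24 passed the filter, with 0.207 to 0.434 CPM in the other WT cultures and 0.021 to 0.138 CPM in Cacnb3-/- cultures. Ccl24 was then called in the sums (edgeR adjusted p = 0.0389), among 2.54% of all genes (380), and this call is no support for a difference.

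The members lie at 3 places in the genome (coordinates in GRCm38, from the deposited table). On chromosome 11, Ccl2 (ENSMUSG00000035385) lies at 82035571-82037453 on the plus strand, apart from a cluster that holds Ccl5 (ENSMUSG00000035042, 83525778-83530518, minus), Ccl9 (ENSMUSG00000019122, 83572919-83578636, minus), Ccl6 (ENSMUSG00000018927, 83587882-83593087, minus), Ccl3 (ENSMUSG00000000982, 83647844-83649355, minus) and Ccl4 (ENSMUSG00000018930, 83662584-83664683, plus). On chromosome 8, Ccl22 (ENSMUSG00000031779) lies at 94745590-94751699 and Ccl17 (ENSMUSG00000031780) at 94810453-94812035, both on the plus strand. Ccl24 (ENSMUSG00000004814) lies on chromosome 5 at 135569937-135573043 on the minus strand. The counted exons of the members share 0 bases with exons of other annotated genes. Members of a chromosome are called neighbours below where no other member lies between them, whether or not other genes do.

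Promoter windows of 300 bases (250 before to 50 after the RefSeq start, build GRCm38.p6) were at hand for 5 of the 9 members. Those of the neighbours Ccl22 and Ccl17 and of the neighbours Ccl9 and Ccl6 are shown, because the genes of each pair varied together across cultures, and the mean levels in Cacnb3-/- cultures were lower than in WT for the first pair and higher for the second, without a call. Capitals mark matches on either strand to any of 5 motifs, namely the NF-kB motif, a STAT motif (TTC followed after 4 bases of any kind by GAA), the AP-1 motif TGANTCA, the TATA box TATAAA and the interferon response motif, in which a first GAAA is followed after 2 bases of any kind by the same letters again. All are written 5′ to 3′ on the strand of the gene.
Ccl22, chr8:94745434-94745733 (+): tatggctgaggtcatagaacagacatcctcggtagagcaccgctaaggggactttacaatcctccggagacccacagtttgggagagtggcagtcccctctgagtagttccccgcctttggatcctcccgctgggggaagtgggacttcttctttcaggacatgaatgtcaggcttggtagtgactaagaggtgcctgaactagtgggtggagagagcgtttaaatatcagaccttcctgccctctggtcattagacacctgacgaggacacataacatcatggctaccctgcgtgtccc
Ccl17, chr8:94810203-94810502 (+): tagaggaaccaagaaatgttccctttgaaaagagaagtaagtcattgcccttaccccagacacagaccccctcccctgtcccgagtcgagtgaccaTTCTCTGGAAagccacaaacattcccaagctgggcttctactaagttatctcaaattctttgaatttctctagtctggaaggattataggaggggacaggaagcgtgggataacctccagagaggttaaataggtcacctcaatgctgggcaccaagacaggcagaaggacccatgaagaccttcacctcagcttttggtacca
Ccl9, chr11:83578587-83578886 (-): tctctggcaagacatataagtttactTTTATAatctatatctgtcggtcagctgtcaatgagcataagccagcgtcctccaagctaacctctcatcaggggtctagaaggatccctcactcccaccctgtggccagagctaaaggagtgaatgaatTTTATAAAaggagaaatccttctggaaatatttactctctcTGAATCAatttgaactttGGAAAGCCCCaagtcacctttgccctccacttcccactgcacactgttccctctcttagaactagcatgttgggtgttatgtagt
Ccl6, chr11:83593038-83593337 (-): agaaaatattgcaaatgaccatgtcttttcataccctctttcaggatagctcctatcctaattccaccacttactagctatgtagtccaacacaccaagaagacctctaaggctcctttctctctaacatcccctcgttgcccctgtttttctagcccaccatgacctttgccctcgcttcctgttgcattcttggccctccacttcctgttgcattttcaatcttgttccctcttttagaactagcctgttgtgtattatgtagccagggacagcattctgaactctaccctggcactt

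The Ccl17 window held TTCTCTGGAA, a match to the STAT motif that reads on both strands, with its first base at position -154 from the start. Of 32851 windows of this length, 6.953% hold that motif. The Ccl9 window held an NF-kB motif on the minus strand with its first base at -35 (8.459% of windows), TGAATCA at -53, a match to the AP-1 motif on both strands (7.808%), and the TATA box at -92 on the plus strand and at -94 and -224 on the minus strand (13.62%), where the matches at -92 and -94 overlap. The interferon response motif (3.443% of windows) was in none of the 5 windows, and the Ccl22, Ccl6 and Ccl3 windows held no match to any of the 5 motifs. Among the 10 pairs of windows, Ccl6 and Ccl9 shared the longest run of bases, the 13 bases gccctccacttcc with the first base at -55 and -14, and the other pairs shared at most 10. These matches describe the letters in the windows and were not tied to the expression values.

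Genotypes were compared within each set to ask whether BMDCs labelled Cacnb3-/- differ from WT BMDCs in chemokine transcripts. The abundant Ccl5, Ccl22 and Ccl17 had lower mean levels in Cacnb3-/- than in WT cultures in all 3 sets, while Ccl6 and Ccl9 had higher means. None of these differences was called by the edgeR fit, where a call needed both a change of 2-fold or more and an adjusted p below 0.05. The same was true of all genes, with 0.0% of 13022 genes called in ctrl, 0.0% of 12806 in 0p5h, 0.0% of 12706 in 24h and 0.0% of 14833 with the 3 libraries of a culture summed. DESeq2 called 146, 83, 606 and 251 genes in these comparisons, with 1 member in ctrl (Ccl5) and 1 in the sums (Ccl17). In ctrl, 4 of 8 tested members had an unadjusted p under 0.05 (Ccl4, Ccl5, Ccl17, Ccl22), as had 16.6% of all genes (2161). In 0p5h they were 3 of 8 (Ccl5, Ccl17, Ccl22) beside 16.4% of all genes (2103). In 24h they were 5 of 8 (Ccl5, Ccl6, Ccl9, Ccl17, Ccl22) beside 38.4% (4877), and in the sums 4 of 8 (Ccl5, Ccl6, Ccl17, Ccl22) beside 23.3% (3449). The median log2 fold change of the 8 members was -0.61 in ctrl, 0.50 in 0p5h and 0.15 in 24h, and that of all genes tested was 0.03, 0.02 and 0.01. In RNA from whole cultures, fewer cells of a type and less RNA per cell cannot be told apart.

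Values of single cultures are given in the order of their numbers, which for WT are p974s846, p974s850, p974s855, p974s856 and p974s864 and for Cacnb3-/- are p974s843, p974s851, p974s852 and p974s853 followed by p974s865. In the set ctrl, Ccl5 was at 6113, 3668, 8490.2, 5862 and 2986 CPM in WT and at 2506, 3262, 2796, 2534 and 2048 CPM in Cacnb3-/- cultures. The WT cultures spread over a wide range, and the lowest of them, p974s864, lay inside the Cacnb3-/- range. In 0p5h, Ccl5 was at 8208, 3631, 8843, 6514 and 3449 CPM in WT and at 2906, 3815, 3326, 3878 and 2304 CPM in Cacnb3-/-. In 24h, it was at 7511, 5851, 7084, 9346 and 4496 CPM in WT and at 2645, 4355, 3954, 3390.1 and 3523 CPM in Cacnb3-/-. In that set all Cacnb3-/- cultures lay below all WT cultures, and Ccl5 was the only member of 8 without overlap, beside 6.51% of all genes. No member was without overlap in ctrl or 0p5h, where 1.93% and 2.05% of all genes were.

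The log2 difference of Ccl5 (Cacnb3-/- minus WT) was -1.02 ± 0.27 (SE; 95% interval -1.61 to -0.43; edgeR adjusted p = 0.243) in ctrl, -0.90 ± 0.29 (-1.53 to -0.27; adjusted p = 0.251) in 0p5h and -0.93 ± 0.22 (-1.41 to -0.45; adjusted p = 0.0515) in 24h, with 5 cultures per genotype. Mean levels were 5424 ± 2185 against 2629 ± 445 CPM (SD) in ctrl and 6858 ± 1821 against 3573 ± 643 CPM in 24h. With single cultures left out in turn, Ccl5 was called only without the WT culture p974s864, the lowest WT culture in each set. Without p974s864, Ccl5 was called in ctrl (-1.17, adjusted p = 0.0277) among 1.88% of all genes (249), in 24h (-1.04, adjusted p = 0.0377) among 5.74% (733), and in the sums (-1.06, adjusted p = 0.0388) among 2.54% (380). The fit with DESeq2 also called Ccl5 in ctrl (-1.03, adjusted p = 0.0159), among 146 genes.

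Ccl22, like Ccl17 a ligand of CCR4, was the member with the most reads. In ctrl it was at 6491, 8033, 13054, 6993 and 4155 CPM in WT and at 2818, 5532, 4449, 4264 and 3420.4 CPM in Cacnb3-/- cultures. In 0p5h it was at 7363, 8294, 13984, 7530.2 and 5315 CPM in WT and at 3810.3, 5822, 5288, 5511 and 4548 CPM in Cacnb3-/-. In 24h it was at 7699, 7928, 11632, 6580.5 and 6599.6 CPM in WT and at 3906, 6782, 4986, 5139 and 5488 CPM in Cacnb3-/-. Culture p974s855 was the highest WT culture in every set, and the groups overlapped at p974s864 in ctrl and 0p5h and by 1 Cacnb3-/- culture, p974s851, in 24h. The log2 difference was -0.89 ± 0.29 in ctrl (95% interval -1.54 to -0.25; adjusted p = 0.248), -0.75 ± 0.25 in 0p5h (-1.29 to -0.21; adjusted p = 0.251) and -0.61 ± 0.21 in 24h (-1.07 to -0.14; adjusted p = 0.0673).

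Ccl17 had the widest spread between WT cultures of all members that passed the filter. In ctrl it was at 101, 166, 531, 145 and 51.3 CPM in WT and at 45.2, 100.1, 49.4, 41.9 and 88.8 CPM in Cacnb3-/-. In 0p5h it was at 94.0, 177, 583, 154 and 61.9 CPM in WT and at 58.3, 85.6, 45.3, 44.3 and 114 CPM in Cacnb3-/-. In 24h it was at 75.6, 76.2, 248, 113 and 44.4 CPM in WT and at 47.2, 80.5, 36.9, 47.5 and 72.5 CPM in Cacnb3-/-. A single WT culture, p974s855, stood above all others in each set, and p974s864 lay among the Cacnb3-/- cultures in each. The log2 difference between genotypes was -1.59 ± 0.53 in ctrl (95% interval -2.75 to -0.43; adjusted p = 0.249), -1.61 ± 0.54 in 0p5h (-2.78 to -0.44; adjusted p = 0.251) and -0.95 ± 0.40 in 24h (-1.81 to -0.09; adjusted p = 0.101). Without p974s864, Ccl17 was called in 24h (-1.15, adjusted p = 0.0451) and in the sums (-1.73, adjusted p = 0.0455). Without p974s855, its log2 difference was -0.82 in ctrl, -0.80 in 0p5h and -0.42 in 24h, with adjusted p = 0.535, 0.519 and 0.301.

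Ccl6 and Ccl9, which encode CCR1 ligands of myeloid cells, had higher means in Cacnb3-/- than in WT cultures in each set and were not called in any. In ctrl, Ccl6 was at 102, 345, 148, 160.0 and 551 CPM in WT and at 422, 527, 339, 348 and 695 CPM in Cacnb3-/-. In 0p5h it was at 158, 417, 176, 196 and 504 CPM in WT and at 636, 607, 271, 254 and 733 CPM in Cacnb3-/-. In 24h it was at 132, 344, 144, 149.6 and 298 CPM in WT and at 594, 422, 246, 235 and 550.4 CPM in Cacnb3-/-. The WT cultures p974s850 and p974s864 were high in every set and reached into the Cacnb3-/- range. The log2 difference of Ccl6 was 0.85 ± 0.42 in ctrl (95% interval -0.06 to 1.77; adjusted p = 0.328), 0.80 ± 0.40 in 0p5h (-0.06 to 1.66; adjusted p = 0.328) and 0.95 ± 0.34 in 24h (0.21 to 1.70; adjusted p = 0.0707).

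Ccl9 showed the same high and low cultures as Ccl6. In ctrl it was at 268, 760.3, 279.6, 355 and 904 CPM in WT and at 539, 952, 458, 416 and 1068 CPM in Cacnb3-/-. In 0p5h it was at 332, 809.5, 359, 426 and 847 CPM in WT and at 1003, 893, 399.7, 313 and 1301 CPM in Cacnb3-/-. In 24h it was at 397, 504, 367, 297 and 494 CPM in WT and at 1257, 747, 413, 449 and 822 CPM in Cacnb3-/-. The Cacnb3-/- cultures p974s852 and p974s853 lay within the WT range in ctrl and 24h, and in 0p5h p974s853 lay below it. The log2 difference of Ccl9 was 0.44 ± 0.40 in ctrl (95% interval -0.43 to 1.304; adjusted p = 0.577), 0.51 ± 0.40 in 0p5h (-0.37 to 1.39; adjusted p = 0.524) and 0.85 ± 0.29 in 24h (0.23 to 1.47; adjusted p = 0.0609).

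**Figure D2:**
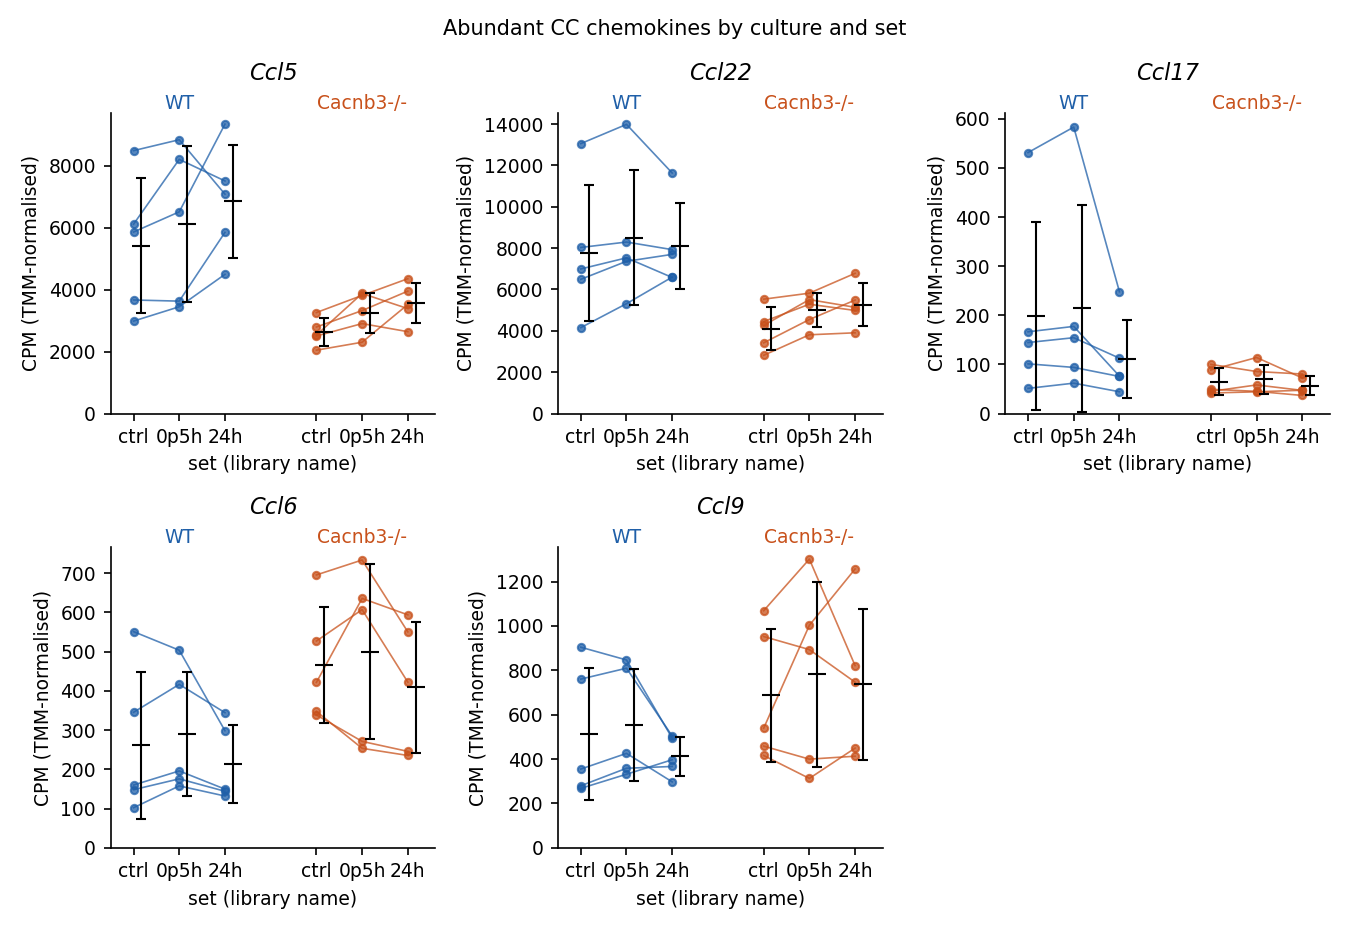
TMM-normalised CPM (vertical axis, from 0) of Ccl5, Ccl22, Ccl17, Ccl6 and Ccl9 in the sets ctrl, 0p5h and 24h (horizontal axis), with 1 point per library, lines joining the libraries of a culture, and the mean ± SD of 5 cultures in black. The WT cultures spread widely for Ccl5, Ccl22 and Ccl17, with means above those of Cacnb3-/- cultures, and culture p974s855 reaches 583 CPM of Ccl17.

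Ccl4, Ccl3 and Ccl2 were not called between genotypes, and the sign of their differences was not the same in all sets. The log2 difference of Ccl4 was -0.86 ± 0.35 in ctrl (95% interval -1.63 to -0.09; adjusted p = 0.277), 0.49 ± 0.31 in 0p5h (adjusted p = 0.43) and 0.52 ± 0.48 in 24h (adjusted p = 0.439). For Ccl3 it was -0.36, 0.55 and 0.19, and for Ccl2 -0.04, 0.79 and 0.11, with edgeR adjusted p between 0.373 and 0.979. With the libraries of a culture summed, the log2 differences were -0.92 ± 0.24 for Ccl5 (adjusted p = 0.127), -0.76 ± 0.25 for Ccl22 (0.136), -1.49 ± 0.50 for Ccl17 (0.139), 0.85 ± 0.37 for Ccl6 (0.201) and 0.52 ± 0.34 for Ccl9 (0.361). DESeq2 called 251 genes in that comparison, among them Ccl17 (-1.52, adjusted p = 0.0340).

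**Figure D3:**
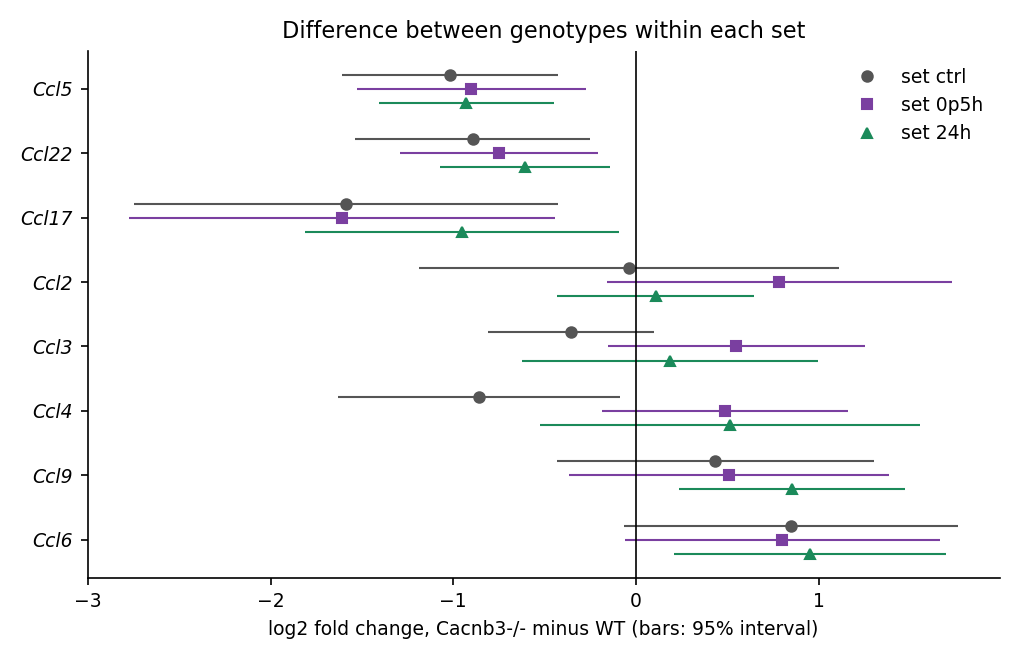
Log2 fold change between genotypes (Cacnb3-/- minus WT, horizontal axis) of the 8 tested members in the sets ctrl, 0p5h and 24h, with 95% intervals as bars. Intervals of Ccl5, Ccl22 and Ccl17 lie below 0 in each set, and those of Ccl6 and Ccl9 lie above 0 in 24h, while none of the 24 differences was called.

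Levels of cell type markers were summed in the same libraries, and their part in the results was not tested. The 7 dendritic cell markers named above summed to 21396.7 to 31231.5 CPM in WT and 15097.5 to 28506.3 CPM in Cacnb3-/- cultures. The summed level of 7 mature dendritic cell markers (Ccr7, Fscn1, Il4i1, Cd86, Cd40, Cd83, Socs2), averaged over the 3 libraries of a culture, was 11084 to 16621 CPM in WT and 7719 to 12209 CPM in Cacnb3-/- cultures, and p974s864 was the lowest WT culture. The 10 macrophage markers, Csf1r and C1qa among them, summed to 1367 to 2582 CPM in WT and 878 to 3141 CPM in Cacnb3-/-. The Cacnb3-/- cultures p974s852 and p974s853, which had the lowest Ccl6 and Ccl9 levels of their genotype, also had the lowest macrophage sums of theirs, at 878 and 1108 CPM. In WT the order was another one, since p974s856, with the highest macrophage sum (2582 CPM), was at 169 CPM of Ccl6 in the mean of its libraries, and p974s864, the highest in Ccl6 (451 CPM), had a macrophage sum of 1460 CPM. Granulocyte markers (9 genes) summed to 147 to 544 CPM in WT and 288 to 511 CPM in Cacnb3-/-, and eosinophil, basophil and mast cell markers (7 genes) to 76.7 to 168 and 112 to 155 CPM. T and NK cell markers (7 genes) came to 5.80 to 16.4 CPM in WT and 12.9 to 20.6 CPM in Cacnb3-/-, and B cell markers (4 genes) to 0.851 to 4.76 and 1.28 to 3.101 CPM. Cd3e, Trac, Ncr1, Klrb1c, Epx and Ms4a2 were under 1 CPM in every library. Of all marker genes, none was called between genotypes.

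Sets were compared within each genotype to ask how chemokine transcripts differ between the libraries named ctrl, 0p5h and 24h. Ccl4, a chemokine released early by activated myeloid cells, rose from ctrl to 0p5h in Cacnb3-/- cultures. It was the only member called in a set comparison by the main edgeR fit, which did not pair libraries by culture number. A fit with the culture number as a block, given below, called Ccl2 as well. In Cacnb3-/- cultures, Ccl4 was at 5.29, 8.13, 4.01, 5.58 and 2.71 CPM in ctrl, at 37.6, 24.9, 9.23, 15.4 and 30.1 CPM in 0p5h and at 33.1, 17.8, 13.3, 17.4 and 8.62 CPM in 24h. Each culture was higher in 0p5h and in 24h than in ctrl, and neither of these sets overlapped with ctrl. The rise to 0p5h was 4.53-fold (log2 2.18 ± 0.38; 95% interval 1.35 to 3.01; edgeR adjusted p = 0.0311), and within cultures it ran from 2.30-fold to 11.1-fold. In this comparison 0.29% of 12750 genes were called (37, of which 36 were higher). The call was lost with sequencing lane as a covariate (adjusted p = 0.0519) and without any of 4 single cultures (p974s843, 0.239; p974s851, 0.153; p974s853, 0.128; p974s865, 0.129), while it held without p974s852 (0.0377), with log2 values of 1.92 to 2.39.

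In WT cultures, Ccl4 was at 14.8, 6.40, 13.7, 7.67 and 4.70 CPM in ctrl, at 20.3, 13.3, 19.1, 17.5 and 14.2 CPM in 0p5h and at 21.5, 14.5, 16.4, 8.12 and 2.44 CPM in 24h. The level was higher in 0p5h than in ctrl in 5 of 5 cultures, by 1.38-fold to 3.02-fold, and the groups overlapped at p974s846 and p974s855, the highest in ctrl. The log2 difference was 0.85 ± 0.29 (95% interval 0.20 to 1.498; adjusted p = 0.653), and with the culture number as a block it was 0.90 (adjusted p = 0.0035), under the 2-fold minimum. The difference between genotypes in this change was 1.34 ± 0.50 on the log2 scale (0.30 to 2.39; adjusted p = 0.99996).

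Ccl2, the ligand of CCR2, had the same order of sets. In Cacnb3-/- cultures it was at 0.597, 2.30, 2.13, 1.28 and 1.14 CPM in ctrl, at 6.18, 7.83, 3.42, 3.83 and 5.29 CPM in 0p5h and at 3.33, 2.25, 3.08, 2.46 and 1.44 CPM in 24h. In WT cultures it was at 0.552, 2.56, 0.959, 0.662 and 2.93 CPM in ctrl, at 1.15, 4.41, 1.27, 2.79 and 6.01 CPM in 0p5h and at 2.29, 2.45, 2.01, 2.26 and 2.54 CPM in 24h. In Cacnb3-/- cultures the set 0p5h lay above both other sets without overlap, whereas in WT the sets overlapped and 0p5h was above ctrl in each of the 5 cultures. These levels rest on 13 to 177 reads per library. The Cacnb3-/- difference from ctrl to 0p5h was 3.61-fold (log2 1.85 ± 0.36; 1.07 to 2.64; adjusted p = 0.0604), and that from 0p5h to 24h was -1.10 ± 0.29 on the log2 scale (-1.74 to -0.46; adjusted p = 0.116). The WT difference from ctrl to 0p5h was 1.04 ± 0.60 (-0.28 to 2.37; adjusted p = 0.9997).

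With the culture number as a block, which uses the differences within a culture, Ccl2 passed the call in 3 comparisons. It rose from ctrl to 0p5h in WT (log2 1.03, adjusted p = 0.0104, among 0.581% of all genes, 76) and in Cacnb3-/- (1.89, adjusted p = 0.00757, among 0.643%, 82), and it fell by 1.13 on the log2 scale from 0p5h to 24h in Cacnb3-/- (adjusted p = 0.00782, among 2.88%, 367). Ccl4 kept its call in Cacnb3-/- in the blocked fit (2.15, adjusted p = 0.00399). The DESeq2 fit called Ccl2 in Cacnb3-/- from ctrl to 0p5h (adjusted p = 6.04e-05) and from 0p5h to 24h (adjusted p = 0.0157).

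Ccl3, the neighbour of Ccl4 and also an inflammatory chemokine, was at 9.05, 11.01, 4.801, 7.51 and 9.26 CPM in ctrl, at 24.6, 16.8, 7.82, 9.86 and 27.6 CPM in 0p5h and at 24.9, 17.6, 12.2, 8.64 and 10.2 CPM in 24h in Cacnb3-/- cultures. In WT cultures it was at 12.8, 8.69, 13.05, 9.62 and 10.005 CPM in ctrl, at 12.4, 10.8, 11.1, 16.9 and 8.73 CPM in 0p5h and at 15.9, 15.5, 20.1, 8.12 and 5.07 CPM in 24h. Every Cacnb3-/- culture was higher in 0p5h than in ctrl, while 2 of 5 WT cultures were, and the sets overlapped in both genotypes. The log2 difference from ctrl to 0p5h was 1.04 ± 0.34 in Cacnb3-/- (0.30 to 1.79; adjusted p = 0.683) and 0.15 ± 0.18 in WT (-0.24 to 0.55; adjusted p = 0.9997). The blocked fit gave 0.98 in Cacnb3-/- (adjusted p = 0.0204), under the 2-fold minimum, and the difference between genotypes was 0.90 ± 0.41 (0.05 to 1.75; adjusted p = 0.99996).

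**Figure D4:**
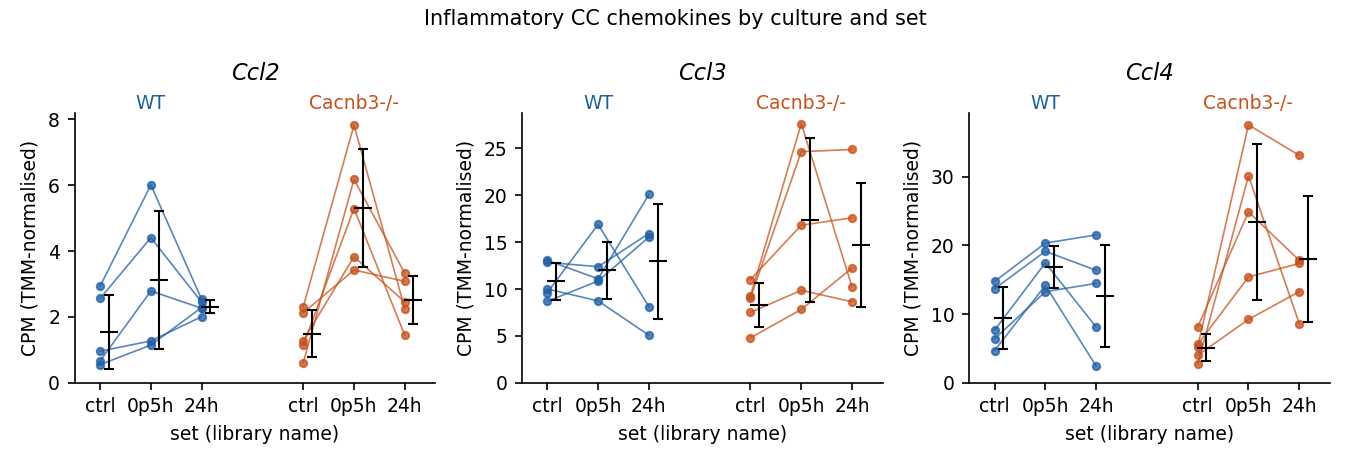
TMM-normalised CPM (vertical axis, from 0) of Ccl2, Ccl3 and Ccl4 in the sets ctrl, 0p5h and 24h (horizontal axis), with 1 point per library, lines joining the libraries of a culture, and the mean ± SD of 5 cultures in black. In Cacnb3-/- cultures the 0p5h values of Ccl2 and Ccl4 lie above all ctrl values, and Ccl4 reaches 37.6 CPM.

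Of 8 tested members, 2 of 8 (Ccl2, Ccl4) did not overlap between 0p5h and ctrl in Cacnb3-/- and were higher, beside 0.761% of all genes, and 5 of 8 (Ccl2, Ccl3, Ccl4, Ccl5, Ccl22) were higher in 5 of 5 cultures, beside 9.76%. In WT, 3 of 8 (Ccl2, Ccl4, Ccl22) were higher in 0p5h than in ctrl in 5 of 5 cultures, beside 9.67% of all genes, and 0 of 8 members were called beside 0.176% of 13085 genes (23). The median log2 fold change of the members from ctrl to 0p5h was 0.15 in WT and 0.28 in Cacnb3-/-, and that of all genes was 0.01 and -0.01. The genotypes have their own ctrl libraries, so these counts share no samples.

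At 24h against ctrl, no member was called in WT, where 0.0152% of 13176 genes were (2), or in Cacnb3-/-, where edgeR called 0.0% of 12452 genes, the unadjusted p of 1343 genes was below 0.05 and the DESeq2 fit made 48 calls. Ccl4 was higher in the mean of Cacnb3-/- cultures (log2 1.81 ± 0.37; 1.01 to 2.61; adjusted p = 0.173), and it was the only one of 8 members higher without overlap, beside 0.659% of all genes. Ccl3, Ccl4, Ccl5 and Ccl22 were higher in 5 of 5 Cacnb3-/- cultures, beside 14.4% of all genes, in a comparison where culture numbers were not taken to pair libraries because those of p974s843 did not deviate together. In WT, Ccl17 was lower in 24h than in ctrl in 5 of 5 cultures, beside 11.6% of all genes, with levels of 0.458 to 0.866 times those in ctrl (log2 -0.83 ± 0.60; adjusted p = 0.727).

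At 24h against 0p5h, which uses the same 24h libraries, no member was called beside 0.639% of 12830 genes in WT (82) and 0.66% of 12730 genes in Cacnb3-/- (84). Ccl17 and Ccl6 were lower in 5 of 5 WT cultures, beside 14.5% of all genes, with log2 differences of -0.94 ± 0.60 (adjusted p = 0.630) and -0.44 ± 0.39 (adjusted p = 0.748). The blocked fit gave -0.74 for Ccl17 (adjusted p = 0.0138) and -0.39 for Ccl6 (adjusted p = 0.0219), both under the 2-fold minimum, and for Ccl17 against ctrl -0.64 (adjusted p = 0.0336). In Cacnb3-/- cultures, Ccl2 and Ccl6 were lower in 5 of 5, beside 19.1% of all genes, and 1 of 8 members, Ccl2, was lower without overlap, beside 1.83%.

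Whether a change between sets differed between genotypes was tested as an interaction, and no member was called. This fit did not pair libraries by culture number, and with the number as a block no member was called either. An unpaired fit leaves the spread between cultures in its error, so a missing call does not show that the changes were equal. From ctrl to 0p5h, 2 of 8 members (Ccl4, Ccl3) had an unadjusted p under 0.05, beside 0.223% of 13465 genes (30), and edgeR called 0.0% of all genes. From ctrl to 24h, 1 of 8 (Ccl4, 1.38 ± 0.64; adjusted p = 0.753) had one, beside 4.86% (658) and 0.0% called of 13536 genes. From 0p5h to 24h, 0 of 8 had one, beside 5.88% (789) and 0.0% called of 13424 genes, and the smallest adjusted p was that of Ccl2 (-0.67 ± 0.53; 0.7102). DESeq2 called 0 members in the 3 interactions as well.

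In 3 pairs of neighbours in the genome, the members varied together from culture to culture. Only these pairs were tested, and the other pairs of neighbours were not. Over 10 cultures, with the log2 CPM of the 3 libraries averaged, Ccl6 and Ccl9 had a Pearson r of 0.960 (permutation test, two-sided, p = 2e-05, adjusted over 3 pairs 6e-05) and a Spearman rho of 1.0 (p = 1e-05, the smallest these permutations can give). Ccl17 and Ccl22 had an r of 0.882 (permutation p = 0.00132, adjusted 0.00198) and a rho of 0.709 (adjusted 0.0273). Ccl3 and Ccl4 had an r of 0.809 (permutation p = 0.0054, adjusted 0.0054) and a rho of 0.770 (permutation p = 0.013, adjusted 0.0195). With the mean of each genotype subtracted, r was 0.968, 0.823 and 0.809 and rho was 0.952, 0.527 and 0.806. For Ccl17 and Ccl22 the adjusted p (permutation) was then 0.124 for rho and 0.00564 for r, so that a relation by rank was neither shown nor excluded over 10 cultures. With single cultures left out, the adjusted p of rho (permutation) reached 0.0965 for Ccl17 and Ccl22, without p974s855, and 0.0506 for Ccl3 and Ccl4, without p974s843. Without the 2 cultures farthest from the median of the first gene, r was 0.960 for Ccl6 and Ccl9, 0.740 for Ccl17 and Ccl22 (permutation, adjusted p = 0.0582) and 0.602 for Ccl3 and Ccl4 (permutation, adjusted p = 0.114), so that both of these relations rest in part on those cultures. No correlation was computed within a genotype, each of which holds 5 cultures.

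**Figure D5:**
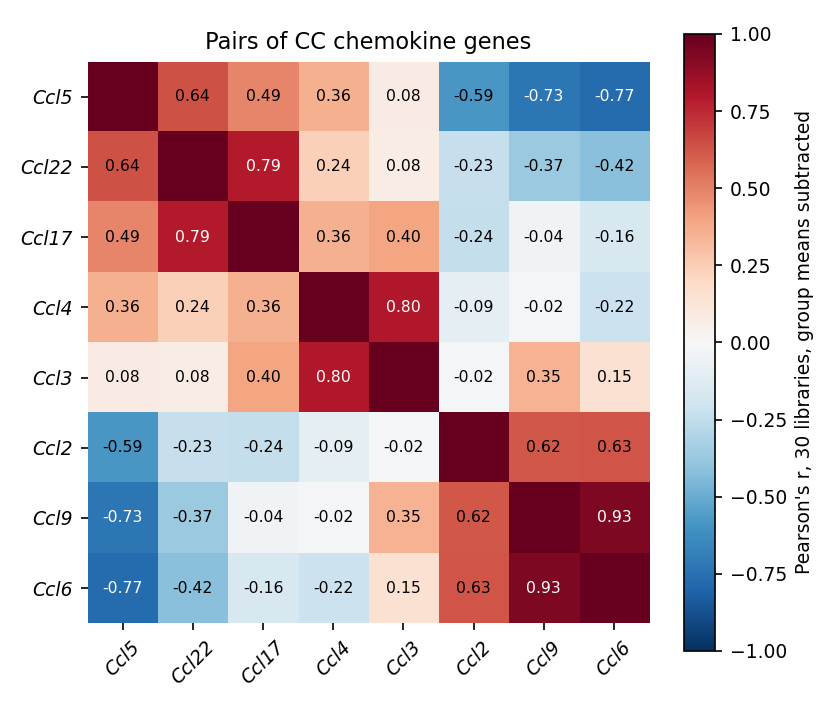
Pearson r of log2 CPM between pairs of the 8 tested members over 30 libraries after the means of the 6 groups were subtracted, as numbers and on a colour scale from -1 to 1. Ccl6 with Ccl9, Ccl3 with Ccl4 and Ccl17 with Ccl22 have the highest values (0.93, 0.80 and 0.79), and Ccl5 with Ccl6 the lowest (-0.77).

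Over the 30 libraries, with group means subtracted and as a description, Ccl5 went with Ccl22 (r = 0.64) and against Ccl6 (-0.77) and Ccl9 (-0.73), and Ccl2 went with Ccl6 (0.63) and Ccl9 (0.62) and against Ccl5 (-0.59). Not all neighbours went together. Ccl5 and Ccl9 went against each other, as did Ccl2 and Ccl5, and both pairs are neighbours too. The neighbours Ccl6 and Ccl3 had an r of 0.15. These points share cultures and library depths. The genes most like each member, by r of log2 CPM over 30 libraries without subtraction, were Cxcl2, Ctss and Il1a for Ccl3 (0.80, 0.72 and 0.70) and Ptgs2, Cxcl2 and Cxcl10 for Ccl4 (0.84, 0.81 and 0.79), of which Cxcl2 encodes a neutrophil chemokine and Ptgs2 an inducible cyclooxygenase. For Ccl2 they were Bambi, Thbd and Atp6v1e1 (0.77, 0.76 and 0.75). For Ccl5 they were the transcription factor Stat3 with Tuba1a and Oasl1 (0.95, 0.92 and 0.91) and for Ccl17 Cfb, Ptafr and Kansl3 (all 0.91). Genes with a pattern like that of Ccl22 included Slamf7 and Osbpl3 (both 0.93). Ccl6 was most like Cd84, Tmem154 and Fuca2 (0.94, 0.93 and 0.92), and Ccl9 most like Fuca2, Nucb2 and Pid1 (0.91, 0.90 and 0.90).

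Of 12 other CC ligand genes, 9 had at most 5 reads in any library, and Ccl11, Ccl19 and Ccl21a had none. The rest were Ccl7, a CCR2 ligand (0 to 5.10 CPM), Ccl25 (0.974 to 3.83 CPM) and Ccl27a (0.263 to 1.70 CPM). Ccl7 had the same order of sets as Ccl2 in Cacnb3-/- cultures, at 0.44 ± 0.41 CPM in ctrl, 3.36 ± 1.49 in 0p5h and 1.32 ± 0.88 in 24h. Its log2 difference from ctrl to 0p5h was 3.03 ± 0.61 (edgeR adjusted p = 0.0750). These sets did not overlap, and 0.761% of all genes were higher without overlap. No other CC ligand was called in any comparison.

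Among the receptor genes, Ccr7, which guides mature dendritic cells to lymph nodes, was at 1667 to 6466 CPM, Ccr1 at 44.4 to 203 CPM and Ccr2 at 10.9 to 337 CPM. Ccr4 and Ccr6 were at 0.144 to 4.21 CPM and 0 to 3.90 CPM, and Ccr3, Ccr8, Ccr9 and Ccr10 had at most 13 reads in a library. None of these receptors was called between genotypes. In 24h, Ccr7 was at 5141 ± 970 CPM in WT and 2927 ± 835 CPM in Cacnb3-/- (log2 -0.80 ± 0.23). Ccr2 was at 38.3 ± 20.1 and 175 ± 104 CPM (2.21 ± 0.47) and Ccr1 at 55.6 ± 7.77 and 118 ± 50.9 CPM (1.10 ± 0.25). Each was without overlap, as were 6.51% of all genes, and had an edgeR adjusted p of 0.0515. The adjustment over all genes can give many genes the same value, and Ccl5, Nfkbib and Il4ra had 0.0515 in 24h too. In ctrl and 0p5h the groups overlapped for Ccr7, Ccr2 and Ccr1. In WT, Ccr1 had a log2 difference of -0.89 (adjusted p = 0.0442) from 0p5h to 24h, under the 2-fold minimum.

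Ccrl2, which encodes an atypical receptor that binds chemerin, was called in both genotypes. It rose from 74.6 ± 39.8 CPM in ctrl to 350.1 ± 90.7 CPM in 0p5h in WT (log2 2.25 ± 0.36, adjusted p = 0.0308) and from 37.96 ± 10.5 to 243 ± 103 CPM in Cacnb3-/- (2.66 ± 0.28, adjusted p = 0.00117), and fell from 0p5h to 24h in WT (-2.80, adjusted p = 0.00282) and in Cacnb3-/- (-2.91, adjusted p = 0.000220). The other atypical receptor genes (Ackr1, Ackr2, Ackr4) were at 0 to 1.27 CPM.

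Of 11 NF-kB genes, 1 was called, namely Nfkbiz, which encodes an inducible NF-kB cofactor. In Cacnb3-/- cultures it rose from 23.8 ± 5.85 CPM in ctrl to 63.7 ± 10.9 CPM in 0p5h (log2 1.41 ± 0.18, adjusted p = 0.00440) and fell by 1.44 to 23.4 ± 4.34 CPM in 24h (adjusted p = 0.00213). In WT its log2 difference was 1.11 from ctrl to 0p5h (adjusted p = 0.0715), and it fell by 1.39 from 0p5h to 24h (adjusted p = 0.0125). Between genotypes the NF-kB genes with the lowest p were Nfkb2 in ctrl (-0.57), Nfkb1 in 0p5h (-0.73) and Nfkbib in 24h (-0.86, adjusted p = 0.0515). In these sets 7, 5 and 7 of 11 had an unadjusted p under 0.05, beside 16.6%, 16.4% and 38.4% of all genes. None of them was called.

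Of 9 genes of the interleukin-4 and STAT6 pathway, 8 passed the filter in the comparisons of genotypes, and none was called there. Il4ra, the receptor chain, had the lowest p in each set, with log2 differences of -0.58, -0.49 and -0.81, and adjusted p = 0.0515 in 24h. Between sets, Cish, a feedback inhibitor of cytokine signalling, was called and fell by 1.57 in WT (adjusted p = 0.00997) and by 1.53 in Cacnb3-/- (adjusted p = 0.00454) from 0p5h to 24h on the log2 scale.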

How the data were processed

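RNA of 30 libraries was sequenced by the authors, and the deposited values are raw read counts per gene. Per the file header, featureCounts 1.5.1 counted reads over exons annotated in Ensembl release 79 (GRCm38) from alignment files of read 1. It set no strand option and no option for multiple alignments or pairs. The labels name STAR 2.4 and DESeq2, and the study's methods name a later genome build. Without a strand option, reads of antisense transcripts would be counted too. 0 rows of the table name no gene. Symbols were matched by Ensembl identifier (38984 of 43629, 89.4%).

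Counts were normalised with TMM, filtered with filterByExpr and tested over all genes with the quasi-likelihood test of edgeR 4.0.16 in R 4.3.3, with Benjamini-Hochberg adjustment. Calls needed a change of 2-fold or more and an adjusted p below 0.05. Intervals are 95% intervals of the fit. Correlations used 100000 permutations in scipy 1.17.1, two-sided. DESeq2 1.42.0, its size factors in edgeR, no low-count filter, no fold minimum, removal of a GC trend, all 30 libraries in 1 fit, a replicate block by culture number and the omission of single cultures were alternatives, and sequencing lane as a covariate was added after seeing the data. Lanes 1 to 3 were read from the names of the alignment files, and Cacnb3-/- 24h had 3 of its 5 libraries in lane 3 while WT ctrl had 3 of its 5 in lane 1. The scripts were tested on simulated data.

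Libraries with the same culture number deviated together from their group means in 29 of 30 pairs (median r = 0.678 over 13755 genes). For other numbers the median was -0.242, and subtracting group means by itself makes such values negative. Most cultures also had all their libraries in the same lane. Of the 30 pairs, the exception was p974s843 between ctrl and 24h (0.0649). Numbers were therefore taken to pair libraries in all set comparisons except 24h against ctrl in Cacnb3-/- and the interactions that include it. This pairing entered only the fits with the culture number as a block and the changes within cultures. The main edgeR fits of sets and interactions held no term for the culture, so their p-values are unpaired. The members and the gene lists were chosen with earlier results of these data known. Named genes were the members, the CC ligands and receptors that passed the filter in any comparison, called genes or else the gene with the lowest p of the NF-kB and STAT6 lists, and the 3 genes most like each member. Some genes that this rule names are not reported here. Of the 9 members, 4 had no promoter in the table used here.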

Additional observations from a re-analysis of the deposited data

Results flagged for a closer look

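In 3 of 48 groups of 5 cultures, 1 culture stood apart from the others by Dixon's criterion, which chance alone meets in about 1 group in 20. All 3 are WT culture p974s855. Ccl17 in ctrl was at 531.2 CPM in that culture, while the other WT cultures were between 51.3 and 166 CPM. Ccl17 in 0p5h was at 583.1 CPM, with the others between 61.9 and 177 CPM. Ccl22 in 24h was at 11632 CPM, with the others between 6580.5 and 7928 CPM.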

How the results depend on the processing

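Of 1480 values of single members under the alternatives, 1400 kept their direction and their side of the threshold, 5 lost the call and 17 gained it. The other 58 changed direction, in 23 results whose reported log2 values were at most 0.285 in size, and none was called in either fit (adjusted p of 0.589 or more). The number of members called differed from that reported in 20 of 198 settings. For DESeq2 it was 1 in place of 0 between genotypes in ctrl and in the sums, 2 in place of 1 in Cacnb3-/- 0p5h against ctrl (Ccl2, Ccl4; 56 genes in all), 1 in place of 0 in Cacnb3-/- 24h against ctrl (Ccl4, adjusted p = 0.000412) and 1 in place of 0 in Cacnb3-/- 24h against 0p5h (Ccl2; 203 genes in all against 84). With no low-count filter it was 2 in Cacnb3-/- 0p5h against ctrl (Ccl2, adjusted p = 0.0225) and 1 in Cacnb3-/- 24h against ctrl (Ccl4, adjusted p = 0.0270; 26 genes in all). With the GC trend removed it was 2 (Ccl2, adjusted p = 0.0442), and with lane as a covariate 0, both in Cacnb3-/- 0p5h against ctrl. With the replicate block it was 1 in WT 0p5h against ctrl, 2 in Cacnb3-/- 0p5h against ctrl, 1 in Cacnb3-/- 24h against 0p5h and, where the numbers were not taken to pair libraries, 1 in Cacnb3-/- 24h against ctrl (Ccl4, 1.76, adjusted p = 0.00319; 138 genes in all). The replicate block changed no other call of a member. With each culture left out in turn, the number of members called ranged from 0 to 1 between genotypes in ctrl, from 0 to 2 in 24h and from 0 to 3 in the sums (Ccl5, Ccl17 and Ccl24, all without WT p974s864), and from 0 to 1 in Cacnb3-/- 0p5h against ctrl. Without the 2 cultures farthest from the median, r was 0.602 for Ccl3 and Ccl4 and 0.740 for Ccl17 and Ccl22. The causes were not tested.

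Over all genes, the count called between genotypes in 24h was 0 in the edgeR fit of that set. It was 606 with DESeq2, 376 with no low-count filter and 615 with all 30 libraries in one fit, and no member was among them. Some members missed these calls only by the 2-fold minimum. Over 6 alternative fits of all cultures, Ccl5 had an adjusted p under 0.05 in 3, and Ccl22, Ccl9 and Ccl6 in 1 each. Other counts that moved by more than 1.5 times were 51 with DESeq2, 76 with the block and 38 with no fold minimum against 23 in WT 0p5h against ctrl. In WT 24h against ctrl they were 30, 122 with the block, 3 with the GC trend removed, 1 with all libraries in one fit and 6 with lane against 2. In WT 24h against 0p5h they were 148, 228 with the block, 184 with lane and 153 with no fold minimum against 82. In Cacnb3-/- 0p5h against ctrl they were 56 and 82 with the block against 37, and in Cacnb3-/- 24h against 0p5h 138 with all libraries in one fit against 84. In the interactions, the block gave 16 from ctrl to 24h and 1 from 0p5h to 24h, against 0. With each culture left out in turn, the count over all genes ranged from 0 to 249 between genotypes in ctrl, from 0 to 1129 in 24h (733 without WT p974s864, 1129 without Cacnb3-/- p974s865) and from 0 to 380 in the sums (380 and 190 without the same cultures). It ranged from 3 to 13 against 23 in WT 0p5h against ctrl (3 without p974s850 or p974s856, 6 without p974s846), from 0 to 2 against 2 in WT 24h against ctrl and from 39 to 72 against 82 in WT 24h against 0p5h (39 without p974s850). It ranged from 16 to 26 against 37 in Cacnb3-/- 0p5h against ctrl (16 without p974s851), from 0 to 3 against 0 in 24h against ctrl and from 20 to 66 against 84 in 24h against 0p5h (20 without p974s851, 30 without p974s853). Depth limits the precision for Ccl24, with at most 15 reads in a library, and for Ccl2, with 13 to 177.

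The values that changed direction were these, on the log2 scale. With lane as a covariate, Ccl2 between genotypes was at 0.452 in ctrl and -0.051 in 24h, and Ccl5 in WT 0p5h against ctrl at -0.019. With the GC trend removed, Ccl2 between genotypes in 24h was at -0.194 and Ccl9 in Cacnb3-/- 24h against ctrl at -0.134. With the replicate block, Ccl9 in Cacnb3-/- 24h against 0p5h was at 0.006. In the interactions with 0p5h against ctrl, Ccl9 was at -0.003 with lane and -0.101 with the block. In those with 24h against ctrl, Ccl2 was at -0.046 with the GC trend removed, -0.025 with lane and -0.037 with the block, and Ccl6 at -0.040 with the GC trend removed and -0.114 with the block. In those with 24h against 0p5h, Ccl4 was at -0.003 with no low-count filter and -0.030 with lane, and Ccl5 at 0.177 with the GC trend removed. With single cultures left out, Ccl2 between genotypes ran from -0.262 to 0.322 in ctrl and from -0.008 to 0.276 in 24h, and Ccl3 from -0.078 to 0.402 in 24h. In WT, Ccl3 ran from -0.050 to 0.252 in 0p5h against ctrl and from -0.121 to 0.395 in 24h against 0p5h, Ccl6 from -0.403 to 0.036 in 24h against ctrl, and Ccl22 from -0.020 to 0.173 in 24h against ctrl and from -0.133 to 0.021 in 24h against 0p5h. In Cacnb3-/- 0p5h against ctrl, Ccl6 ran from -0.051 to 0.174, Ccl9 from -0.013 to 0.275 and Ccl17 from -0.023 to 0.210. Ccl9 ran from -0.262 to 0.280 in Cacnb3-/- 24h against ctrl, and in 24h against 0p5h Ccl9 ran from -0.252 to 0.138 and Ccl3 from -0.353 to 0.094. In the interactions with 0p5h against ctrl, Ccl6 ran from -0.234 to 0.019, Ccl9 from -0.117 to 0.161 and Ccl17 from -0.143 to 0.089. In those with 24h against ctrl, Ccl2 ran from -0.176 to 0.392, Ccl5 from -0.108 to 0.202 and Ccl6 from -0.22 to 0.218, and in those with 24h against 0p5h, Ccl4 from -0.163 to 0.335 and Ccl5 from -0.171 to 0.096.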
